A study of Mus musculus with 18 samples.

Results

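Alternative macrophage activation is followed here through 8 genes that macrophages raise in response to the type 2 cytokines or that serve as its usual markers: Retnla, Ccl24, Il4ra, Mrc1, Clec10a, Mgl2, Cd163 and Folr2. They were chosen by gene symbol out of 55573 genes in the deposited count table, and all 8 were among the 13443 genes that passed the filter on low counts. The samples were peritoneal macrophages of C57BL/6 mice, obtained by lavage and sorted as F4/80+ CD11b+ cells, with 2 to 3 mice pooled per library and 3 libraries in each of 6 groups. Zeb1∆M mice carried floxed Zeb1 alleles and a Cre recombinase inserted at the Lyz2 (LysM) locus, which is active in myeloid cells at large and not in macrophages alone, and their Zeb1WT controls carried the same floxed alleles without Cre. Each genotype was given LPS + LPS (a first dose of lipopolysaccharide and a second dose on the following day), Metformin + LPS (Metformin ahead of the dose) or LPS (vehicle and then a single dose). All groups thus shared the floxed alleles and a final dose of lipopolysaccharide, and none was left without it. The labels of these libraries do not state the age of the mice.

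In alternative activation, interleukin-4 and interleukin-13 bind receptors that share the alpha chain encoded by Il4ra, Janus kinases on the receptor phosphorylate STAT6, and STAT6 enters the nucleus and binds palindromic sites at its target genes. Retnla, Ccl24, Mrc1, Clec10a and Mgl2 are known targets in mouse macrophages, whereas Cd163 and Folr2 are better known as markers of resident and glucocorticoid- or M-CSF-conditioned macrophages. Some of these transcripts are also found in resting macrophages of the peritoneum.

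In the GENCODE vM21 annotation of GRCm38, Retnla lies at chr16:48842551-48844461 on the plus strand, Mrc1 at chr2:14229392-14332057 (plus), Clec10a at chr11:70156197-70170834 (plus) and Mgl2 at chr11:70130329-70137550 (plus). Cd163 lies at chr6:124304656-124330527 (plus), Folr2 at chr7:101839988-101857194 (minus), Il4ra at chr7:125552120-125579474 (plus) and Ccl24 at chr5:135569937-135573049 (minus), and all 8 are annotated as protein coding. Clec10a and Mgl2 are near copies on one chromosome whose transcripts shared 270 stretches of 50 bases, of 3181 in Clec10a and 2205 in Mgl2, so the division of reads between them is uncertain. An antisense gene shares 975 exonic bases with Folr2 and another shares 571 with Il4ra, and the strand setting of the counting was not given in the sources used here, so reads of these partners cannot be told apart. The Mir511 hairpin lies inside Mrc1 and shares no exonic base with it.

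The promoters of Retnla, Mrc1 and Folr2 are printed because these genes were called lower in Zeb1∆M than in Zeb1WT macrophages after Metformin + LPS and had an entry in the RefSeq promoter table (GRCm38.p6), which Ccl24 had not. Each run ends before the earlier of the RefSeq and GENCODE starts, is written 5′ to 3′ on the strand of the gene, and is found at chr16:48842359-48842550 (plus), chr2:14229164-14229391 (plus) and chr7:101857195-101857440 (minus). Capitals mark the palindrome TTCNNNNGAA, the type of site that STAT6 binds.
Retnla: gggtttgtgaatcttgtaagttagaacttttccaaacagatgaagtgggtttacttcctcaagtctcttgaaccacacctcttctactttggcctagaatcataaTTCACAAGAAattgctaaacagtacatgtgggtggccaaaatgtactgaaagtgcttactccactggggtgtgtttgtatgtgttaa
Mrc1: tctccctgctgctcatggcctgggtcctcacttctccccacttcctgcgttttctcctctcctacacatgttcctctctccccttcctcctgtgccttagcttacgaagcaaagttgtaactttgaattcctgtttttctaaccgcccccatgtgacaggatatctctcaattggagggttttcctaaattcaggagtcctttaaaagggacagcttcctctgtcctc
Folr2: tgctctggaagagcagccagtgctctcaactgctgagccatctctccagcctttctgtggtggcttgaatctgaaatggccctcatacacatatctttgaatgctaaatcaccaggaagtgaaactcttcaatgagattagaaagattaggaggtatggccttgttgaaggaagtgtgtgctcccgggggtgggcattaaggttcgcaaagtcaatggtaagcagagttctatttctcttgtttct
The capitals in the Retnla run start 145 bases before its RefSeq start. Of the 6 members with an entry (7 windows, since Folr2 has a second start), only Retnla held TTCNNNNGAA in the 250 bases before its start, and 5.85% of 32851 promoters of the table held it. None of the 7 windows held TTCNNNGAA, the spacing that other STAT proteins prefer, which 7.02% of promoters held on either strand. The E box CACCTG, a sequence that ZEB1 binds, was found on either strand only in the second Folr2 window, against 17.2% of promoters. These matches describe letters in these windows, and binding was not measured here.

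Library totals ran from 14053706 to 30570439 counts. Levels are given as CPM, the count of a gene scaled to a common library size with TMM factors (0.445 to 0.708 in the Zeb1WT Metformin + LPS libraries and 0.843 to 1.56 in the others), and a gene was called where its Benjamini-Hochberg adjusted p in edgeR's quasi-likelihood test over all 13443 genes was under 0.05. Zeb1 had 1.38 to 3.01 CPM in Zeb1∆M and 6.41 to 7.21 CPM in Zeb1WT macrophages after LPS, and 3.92 to 4.79 CPM in Zeb1∆M and 12.3 to 12.9 CPM in Zeb1WT macrophages after Metformin + LPS. After LPS + LPS it had 0.738, 0.926 and 0.757 CPM in Zeb1∆M and 0.912, 2.52 and 1.07 CPM in Zeb1WT macrophages, so that Zeb1WT replicate 1 lay within the Zeb1∆M range and the difference was not called (log2 fold change -0.88, adjusted p = 0.35). Markers of macrophages were present in every library. Libraries of the Metformin + LPS groups carry another series of library codes than those of the LPS and LPS + LPS groups, so Metformin and the code series cannot be told apart in comparisons with LPS. The labels do not say whether the pools of a group were raised or treated apart, so the p-values measure the spread between these libraries.

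After LPS, no member was called in Zeb1∆M against Zeb1WT macrophages (0 of 8 also at an unadjusted p under 0.05 and with DESeq2), where 0.208% of all genes were called higher and 0.937% lower. After LPS + LPS, 1 member, Retnla, was called lower and 0 higher, with 0.461% of all genes higher and 0.216% lower. After Metformin + LPS, Retnla, Mrc1, Folr2 and Ccl24 were called lower, 4 of 8, and 0 higher, with 1.26% of all genes higher and 4.61% lower. With total-count scaling, added after seeing the data, the values of these 4 were -2.21, -0.91, -1.19 and -0.98, and all were still called. The median log2 fold change of the 8 members was -0.10, -0.34 and -0.88 in these 3 comparisons, beside 0.01, -0.02 and 0.03 over all genes tested. Between treatments the members moved in both directions: a second dose of LPS left 3 members higher and 4 lower than after LPS in Zeb1∆M macrophages (15.8% and 16.9% of all genes) and 2 higher and 4 lower in Zeb1WT macrophages (18.6% and 18%). With Metformin + LPS set against LPS, 0 members were higher and 4 lower in Zeb1∆M macrophages (12.6% and 13.6% of all genes) and 2 higher and 2 lower in Zeb1WT macrophages (13% and 12.3%). In bulk libraries, fewer cells of a type and less RNA per cell cannot be told apart.

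**Figure D1:**
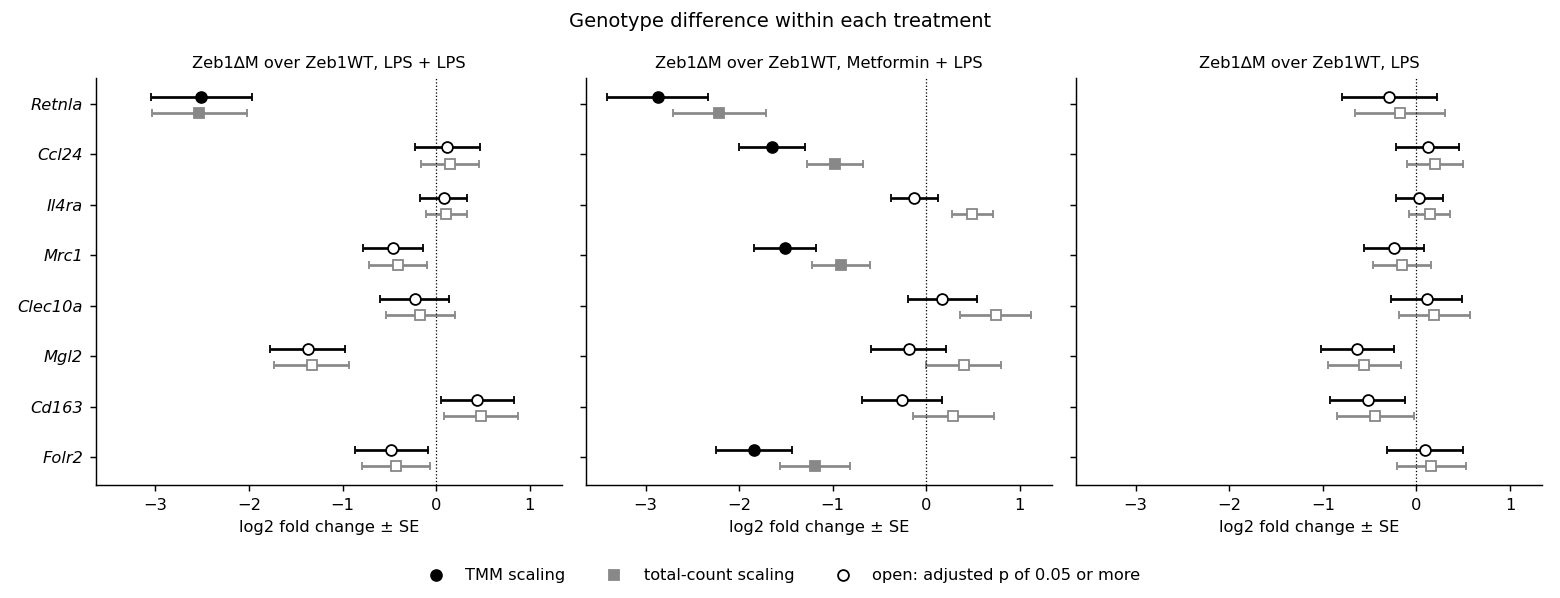
Log2 fold change of the 8 members in Zeb1∆M over Zeb1WT macrophages after LPS + LPS, Metformin + LPS and LPS (panels from left), with bars for the standard error from edgeR; black circles use TMM scaling, grey squares total-count scaling, and filled symbols are called. With TMM, the calls are Retnla after LPS + LPS (-2.51) and Retnla, Folr2, Ccl24 and Mrc1 after Metformin + LPS (-2.87 to -1.51), all below 0.

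Retnla encodes RELM-alpha, a small secreted cysteine-rich protein that alternatively activated macrophages release. Its mean level over the 18 libraries was 667 CPM per kb of exon and its group means spanned 28.7-fold. Per kb it was the most abundant member in 4 of the 6 groups, but in Zeb1∆M macrophages it lay below Il4ra and Folr2 after LPS + LPS (59, 85.9 and 63.4 CPM per kb) and beside Il4ra after Metformin + LPS (231 and 237 CPM per kb). After Metformin + LPS it had 152, 165 and 98.3 CPM in Zeb1∆M macrophages, against 1263, 499 and 1282 CPM in Zeb1WT macrophages. All 3 Zeb1∆M libraries lay below all 3 Zeb1WT libraries, and the log2 fold change was -2.87 (SE 0.54, adjusted p = 0.0048), or 7.33-fold lower. The call held in every fit that left out 1 library, with adjusted p between 0.0019 and 0.028.

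After LPS + LPS, Retnla had 50.9, 22.1 and 33.1 CPM in Zeb1∆M macrophages, against 52.8, 395 and 158 CPM in Zeb1WT macrophages. The groups did not overlap, but the lowest Zeb1WT library (replicate 1) lay close to the highest Zeb1∆M library, and Zeb1WT replicate 2 stood far above the rest. The log2 fold change was -2.51 (SE 0.54, adjusted p = 0.035). Without Zeb1WT replicate 2 it was -1.57 and no longer called (adjusted p = 0.22), and the call was also lost without Zeb1∆M replicate 1 (adjusted p = 0.054), 2 (adjusted p = 0.24) or 3 (adjusted p = 0.17) and in a fit of these groups alone (adjusted p = 0.28). Without Zeb1WT replicate 1, whose Zeb1 level lay within the Zeb1∆M range, it was -2.96 (adjusted p = 0.0022).

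Markers of some other cells moved with Retnla in these libraries, and those of others did not. After LPS + LPS, the summed level of 8 eosinophil markers ran from 13.6 to 27.8 CPM in Zeb1∆M and from 47.5 to 338 CPM in Zeb1WT macrophages. The highest value was in Zeb1WT replicate 2. Epx and Ear1, which are on this list, were at 0 in both groups, and Epx was at 0 in every library of all 6 groups. Prg2, another eosinophil granule gene, had 0.335, 0.168 and 0.237 CPM in Zeb1∆M and 0.255, 15.4 and 3.79 CPM in Zeb1WT macrophages. Of the 6 eosinophil markers tested and the 10 neutrophil markers, 0 were called there, and the neutrophil sum ran from 829 to 1494 CPM in Zeb1∆M and from 962 to 3551 CPM in Zeb1WT macrophages. Of 12 markers of large peritoneal macrophages, 7 were higher in Zeb1∆M macrophages, where their sum ran from 5228 to 7921 CPM, against 1333 to 2392 CPM in Zeb1WT macrophages. The monocyte and small peritoneal macrophage sum was 4523, 4225 and 5942 CPM in Zeb1∆M macrophages. In Zeb1WT macrophages it was 6962, 4134 and 9586 CPM, lowest in replicate 2, where Retnla was highest. Between genotypes, all 10 markers of this list had negative log2 fold changes, with 0 called (median -0.85). So did all 10 neutrophil markers and all 6 tested eosinophil markers (medians -1.60 and -3.03). All 12 large peritoneal macrophage markers had positive values (median 1.74), as had 5 of 8 B cell markers (median 0.08). The B cell sums overlapped, from 121 to 239 CPM in Zeb1∆M and from 125 to 182 CPM in Zeb1WT macrophages. The part of these cells in the Retnla difference was not tested.

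After Metformin + LPS the markers of several cell types were lower in the Zeb1∆M libraries, and these values stand beside all 4 members called there. Of 10 markers of monocytes and small peritoneal macrophages, 7 were lower, with sums of 2497 to 4720 CPM in Zeb1∆M and 6257 to 23410 CPM in Zeb1WT macrophages. Of 10 neutrophil markers 6 were lower (sums of 423 to 500 CPM against 480 to 575 CPM), of 6 tested eosinophil markers 3 (4.06 to 6.28 CPM against 50.7 to 79.8 CPM), and of 8 B cell markers 5 (27.7 to 37.4 CPM against 104 to 174 CPM), with the Zeb1∆M range given before the Zeb1WT range. Lyz2, the lysozyme gene whose locus carries Cre, was also lower (-2.33, adjusted p = 0.0015). The eosinophil genes Prg2, Epx, Ear1 and Ear6 were at 0 in all 3 Zeb1∆M libraries, and Epx in all 3 Zeb1WT libraries. The sum of 8 T, NK and innate lymphoid cell markers was also lower, at 4.86 to 11.1 CPM against 30.2 to 47.7 CPM. Only 1 of these 8 was tested, and it was called lower (-2.27). The sums of other lists overlapped between the genotypes. Dendritic cell sums ran from 113 to 600 CPM in Zeb1∆M and from 105 to 113 CPM in Zeb1WT macrophages. In the same order, mast cell and basophil sums ran from 791 to 1371 and from 754 to 1278 CPM. Large peritoneal macrophage sums ran from 12020 to 13630 and from 10880 to 16030 CPM. Of the tested genes of these lists, 1 of 6, 1 of 4 and 0 of 12 were called lower, and 2 of the 12 higher. Such sums follow the most abundant gene of a list. The log2 fold changes were negative for 4 of 6, 3 of 4 and 5 of 12 genes, with medians of -0.64, -2.74 and 0.29. The 7 macrophage genes, with Lyz2 among them, summed to 26200 to 35680 CPM in Zeb1∆M and 53530 to 122200 CPM in Zeb1WT macrophages, and 1 of the 7 was called lower. Much of this sum was Lyz2, at 10640 to 18650 CPM in Zeb1∆M and 35650 to 92570 CPM in Zeb1WT macrophages. Adgre1, another of the 7, ran from 2849 to 2974 CPM in Zeb1∆M and from 3077 to 4938 CPM in Zeb1WT macrophages. The part of these cells in the result was not tested. After LPS, where no member was called, some sums also lay apart by genotype. Monocyte and small peritoneal macrophage sums were 2733 to 4457 CPM in Zeb1∆M and 5423 to 6215 CPM in Zeb1WT macrophages. In the same order, B cell sums were 99.6 to 154 and 414 to 633 CPM. Large peritoneal macrophage sums were 17770 to 27520 and 11950 to 15430 CPM. Of these markers, 1 of 10, 4 of 8 and 0 of 12 were called lower, and 0 higher.

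**Figure D2:**
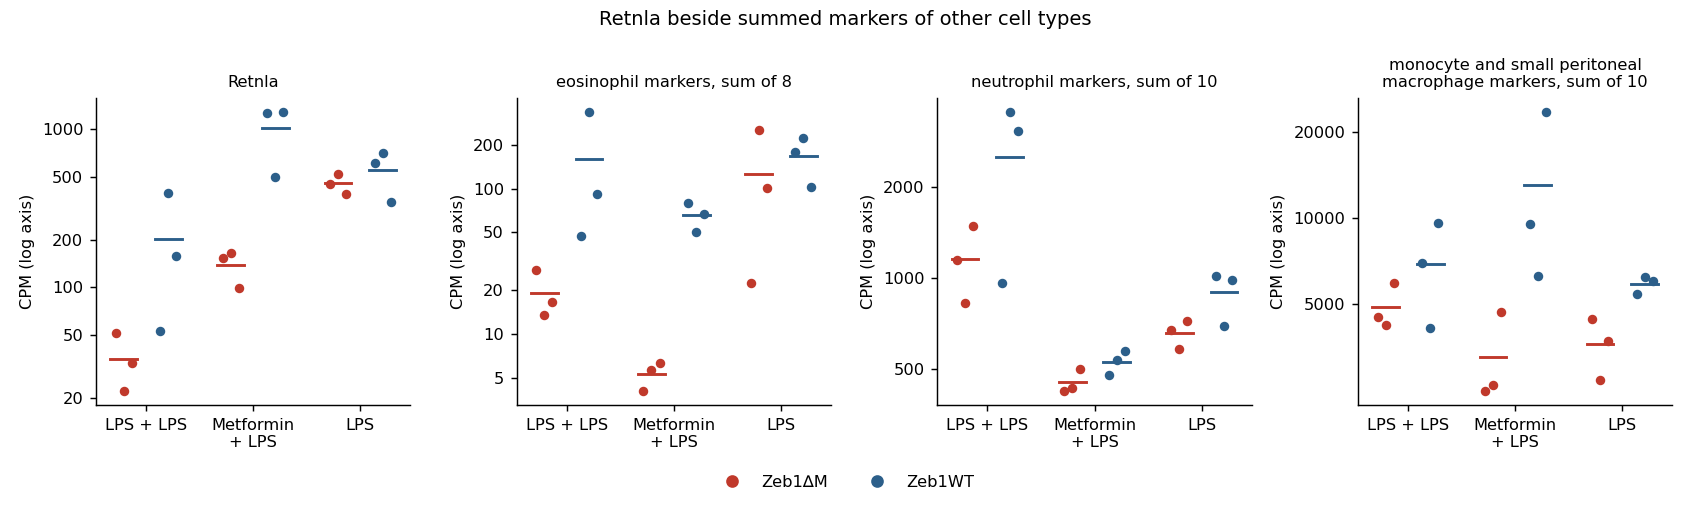
Retnla level (left) and summed levels of eosinophil, neutrophil and monocyte and small peritoneal macrophage markers, all in CPM on log axes, by treatment with Zeb1∆M beside Zeb1WT; points are libraries and bars group means. After LPS + LPS, Zeb1WT replicate 2 is highest of its group for both Retnla (395 CPM) and the eosinophil sum (338 CPM). It is lowest of its group for the monocyte and small peritoneal macrophage sum (4134 CPM).

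After LPS the genotypes overlapped in Retnla (-0.29, adjusted p = 0.86). Between treatments, it was lower after LPS + LPS than after LPS in Zeb1∆M macrophages, where it had 451, 520 and 389 CPM after LPS (log2 fold change -3.68, SE 0.56, adjusted p = 6.7e-05). In Zeb1WT macrophages, with 607, 704 and 346 CPM after LPS, the libraries overlapped and the difference was smaller and near the threshold (-1.45, SE 0.52, adjusted p = 0.035). Leaving out any single Zeb1WT library except LPS replicate 3 or LPS + LPS replicate 2 lifted that adjusted p to between 0.079 and 0.12, whereas without LPS + LPS replicate 2, the library far above the rest, the value was -2.39 (adjusted p = 0.0014). With total-count scaling the value was -0.75 (adjusted p = 0.21). Against LPS, Metformin + LPS gave -1.71 in Zeb1∆M macrophages (SE 0.52, adjusted p = 0.022), a call lost without LPS replicate 2 (adjusted p = 0.056) or without any 1 of the Metformin + LPS libraries (adjusted p = 0.053 to 0.083), and 0.88 in Zeb1WT macrophages (adjusted p = 0.22).

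Ccl24 encodes an eotaxin, a chemokine that attracts eosinophils. After Metformin + LPS it had 55.4, 62.3 and 59.9 CPM in Zeb1∆M macrophages, against 231, 90.7 and 236 CPM in Zeb1WT macrophages. The Zeb1∆M libraries were tightly grouped below the lowest Zeb1WT library, and the log2 fold change was -1.65 (SE 0.35, adjusted p = 0.0096), a call that held without any 1 library.

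After LPS + LPS, Ccl24 was at 8.15, 9.60 and 8.57 CPM in Zeb1∆M and 7.55, 7.91 and 8.72 CPM in Zeb1WT macrophages, against 307, 147 and 213 CPM in Zeb1∆M and 259, 252 and 102 CPM in Zeb1WT macrophages after LPS. The 6 LPS + LPS libraries lay far below the 6 LPS libraries, the widest change of any member between treatments, and the genotypes overlapped in both conditions (log2 fold change 0.12 in each, adjusted p = 0.95 after LPS + LPS and 0.92 after LPS). Against LPS, the log2 fold change was -4.66 in Zeb1∆M macrophages (SE 0.40, adjusted p = 1e-07) and -4.66 in Zeb1WT macrophages (SE 0.40, adjusted p = 6.6e-08). Metformin + LPS against LPS gave -1.91 in Zeb1∆M macrophages (SE 0.35, adjusted p = 0.00093), without overlap, and -0.14 in Zeb1WT macrophages (adjusted p = 0.81), where total-count scaling, added after seeing the data, gave -0.93 and a call (adjusted p = 0.019).

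Il4ra encodes the receptor chain through which the pathway starts. It had 477 to 581 CPM in Zeb1∆M and 385 to 606 CPM in Zeb1WT macrophages after LPS + LPS, and 1029 to 2220 CPM in the 12 libraries of the LPS and Metformin + LPS groups. With TMM scaling the 6 LPS + LPS libraries thus lay below all the others, with a log2 fold change against LPS of -1.41 in Zeb1∆M macrophages (SE 0.26, adjusted p = 0.00039) and -1.46 in Zeb1WT macrophages (SE 0.26, adjusted p = 0.00024). With total-count scaling the values were -0.83 and -0.79, still called (adjusted p = 0.0062 and 0.0066), and the libraries of the Zeb1WT groups overlapped: they ran from 554 to 861 CPM after LPS + LPS and from 583 to 1015 CPM after Metformin + LPS. Between genotypes it differed by 0.03, 0.08 and -0.13 on the log2 scale after LPS, LPS + LPS and Metformin + LPS, each within its standard error of 0.25, and the last of these turned to 0.49 with total-count scaling (adjusted p = 0.1).

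Mrc1 encodes the macrophage mannose receptor CD206, an endocytic lectin. After Metformin + LPS it had 55.5, 45.8 and 20.7 CPM in Zeb1∆M macrophages, against 111, 101 and 136 CPM in Zeb1WT macrophages. Every Zeb1∆M library lay below every Zeb1WT library (-1.51 on the log2 scale, SE 0.33, adjusted p = 0.01), and the call held without any 1 library. After LPS + LPS it had 92.7, 116 and 104 CPM in Zeb1∆M and 198, 85.8 and 144 CPM in Zeb1WT macrophages, where the groups overlapped (-0.46, adjusted p = 0.65).

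After LPS, Mrc1 had 47.9, 41.7 and 34.6 CPM in Zeb1∆M and 62.8, 49.5 and 34.0 CPM in Zeb1WT macrophages. It was higher after LPS + LPS than after LPS in both genotypes, by 1.33 on the log2 scale in Zeb1∆M (SE 0.32, adjusted p = 0.004) and by 1.55 in Zeb1WT macrophages (SE 0.32, adjusted p = 0.001). After Metformin + LPS it differed from LPS by -0.03 in Zeb1∆M macrophages, whose libraries overlapped (adjusted p = 0.97), and was higher in Zeb1WT macrophages (1.25, SE 0.32, adjusted p = 0.0087). With total-count scaling, added after seeing the data, the Zeb1WT value was 0.50 and not called (adjusted p = 0.2). The study singled out Mrc1 for Metformin on these samples, so its Metformin values are not independent of that choice.

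**Figure D3:**
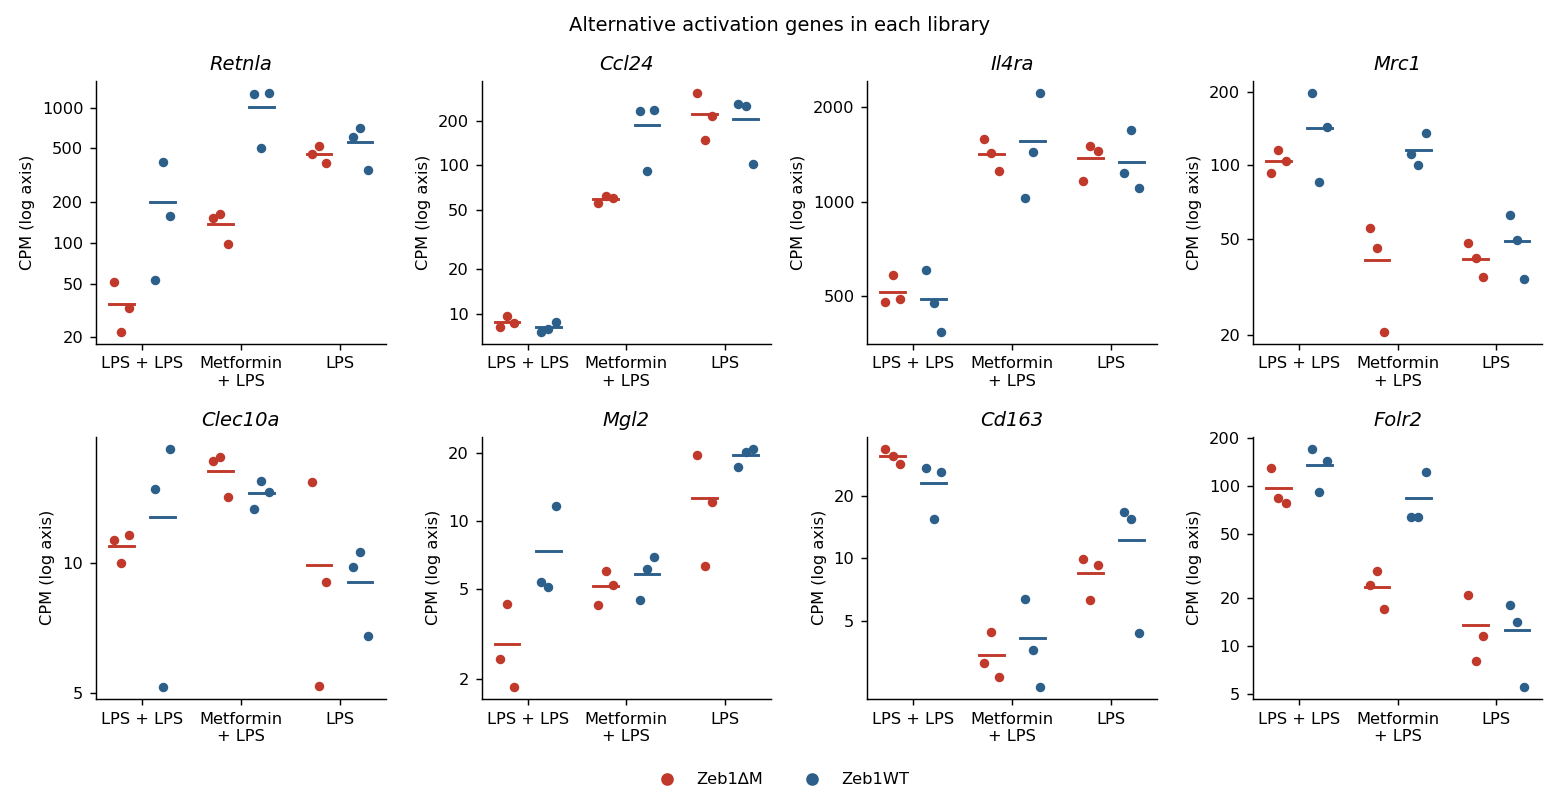
Level of each of the 8 members (CPM, log axis) in every library, by treatment along the horizontal axis with Zeb1∆M beside Zeb1WT, 3 points per group and a bar at each group mean. Ccl24 and Il4ra lie lowest after LPS + LPS in both genotypes, whereas Folr2 and Mrc1 in Zeb1WT macrophages are higher after LPS + LPS and Metformin + LPS than after LPS.

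Clec10a and Mgl2 encode galactose-type lectins (CD301a and CD301b) that bind and take up glycoproteins, and their reads may be divided unevenly, as noted above. Clec10a ran from 5.16 to 18.4 CPM over all 18 libraries, its group means spanned only 1.80-fold, and it was called in none of the 7 genotype and treatment comparisons, although total-count scaling called it higher after LPS + LPS in Zeb1WT macrophages (1.13, adjusted p = 0.019). Mgl2 after LPS + LPS had 2.45, 4.29 and 1.85 CPM in Zeb1∆M and 5.40, 5.12 and 11.7 CPM in Zeb1WT macrophages, which did not overlap but missed the threshold (-1.37, SE 0.40, adjusted p = 0.14). DESeq2 called that difference (adjusted p = 0.036).

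After LPS, Mgl2 had 19.6, 6.37 and 12.1 CPM in Zeb1∆M and 17.4, 20.3 and 21.0 CPM in Zeb1WT macrophages. It was lower after LPS + LPS than after LPS in Zeb1∆M (-2.14, SE 0.41, adjusted p = 0.00056) and in Zeb1WT macrophages (-1.40, SE 0.39, adjusted p = 0.0092). At 4.26 to 6.01 CPM in Zeb1∆M and 4.47 to 6.96 CPM in Zeb1WT macrophages, it was also lower after Metformin + LPS than after LPS, by -1.29 in Zeb1∆M (SE 0.40, adjusted p = 0.024) and by -1.73 in Zeb1WT macrophages (SE 0.40, adjusted p = 0.0043). The Zeb1∆M call with Metformin was lost without any 1 of 5 of its 6 libraries, all but LPS replicate 2 (adjusted p up to 0.15), and the Zeb1WT call after LPS + LPS was lost with total-count scaling (-0.75, adjusted p = 0.12).

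Cd163 encodes the scavenger receptor for haptoglobin-haemoglobin complexes. After LPS + LPS it had 33.7, 31.1 and 28.4 CPM in Zeb1∆M and 27.2, 15.4 and 26.0 CPM in Zeb1WT macrophages, with every Zeb1∆M library higher but no call (0.44, SE 0.39, adjusted p = 0.74). Against LPS, at 9.96, 6.27 and 9.32 CPM in Zeb1∆M and 16.8, 15.5 and 4.36 CPM in Zeb1WT macrophages, it was higher in Zeb1∆M macrophages (1.87, SE 0.41, adjusted p = 0.0018) and at 0.90 in Zeb1WT macrophages (SE 0.40, adjusted p = 0.084). The Zeb1WT difference was called with total-count scaling (1.54, adjusted p = 0.0042) and with no count filter (0.95, adjusted p = 0.0078). After Metformin + LPS it had 2.69 to 4.43 CPM in Zeb1∆M and 2.4 to 6.37 CPM in Zeb1WT macrophages. It was lower than after LPS in both genotypes, by -1.31 in Zeb1∆M (SE 0.42, adjusted p = 0.028, lost without LPS replicate 1 or 3 or Metformin + LPS replicate 1 or 3) and by -1.58 in Zeb1WT macrophages (SE 0.42, adjusted p = 0.01, libraries overlapping, lost without LPS replicate 1 at adjusted p = 0.055 or Metformin + LPS replicate 3 at adjusted p = 0.062).

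Folr2 encodes folate receptor beta, a surface protein of resident macrophages. After Metformin + LPS it had 24.1, 29.4 and 17 CPM in Zeb1∆M macrophages, against 64.7, 64.8 and 123 CPM in Zeb1WT macrophages. The groups did not overlap and the log2 fold change was -1.84 (SE 0.41, adjusted p = 0.012), which missed the threshold without Zeb1WT replicate 3 (-1.47, adjusted p = 0.07) or Zeb1∆M replicate 1 (-1.88, adjusted p = 0.053). After LPS + LPS it had 130, 84.5 and 79.3 CPM in Zeb1∆M and 173, 92.2 and 144 CPM in Zeb1WT macrophages, which overlapped.

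After LPS, Folr2 had 20.9, 8.11 and 11.6 CPM in Zeb1∆M and 18.1, 14.1 and 5.51 CPM in Zeb1WT macrophages. It was the member with the largest increase after LPS + LPS, at 2.87 on the log2 scale in Zeb1∆M (SE 0.43, adjusted p = 5e-05) and 3.43 in Zeb1WT macrophages (SE 0.44, adjusted p = 7.1e-06). Metformin + LPS against LPS gave 0.80 in Zeb1∆M macrophages (adjusted p = 0.16, libraries overlapping) and 2.74 in Zeb1WT macrophages (SE 0.43, adjusted p = 0.00021). Cell markers also moved between LPS + LPS and LPS. Of 12 large peritoneal macrophage markers, 9 were called lower in each genotype, with 2 higher in Zeb1∆M and 0 in Zeb1WT macrophages. Their medians were -1.25 and -2.82. Of 10 monocyte and small peritoneal macrophage markers, 3 were called higher and 2 lower in each genotype. The part of these cells in the treatment changes of the members was not tested.

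**Figure D4:**
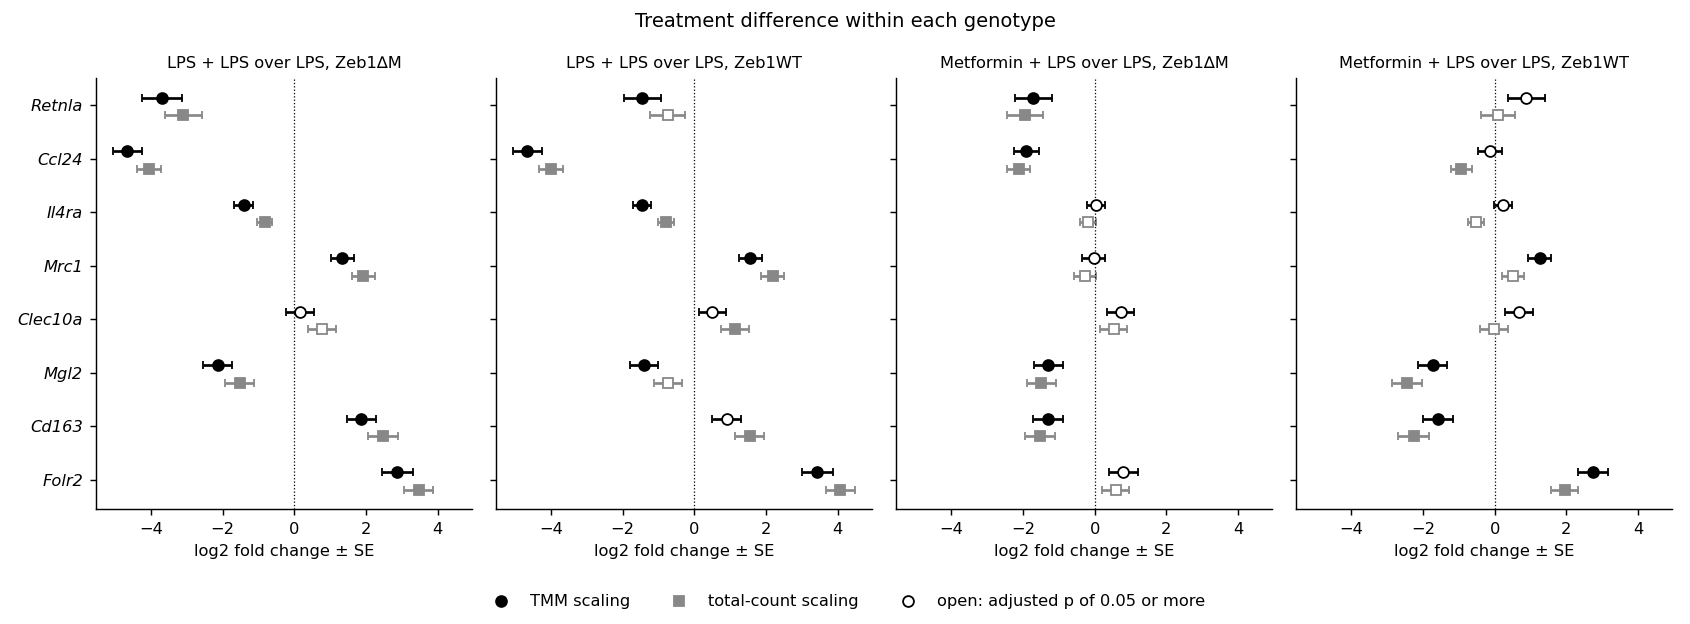
Log2 fold change of the 8 members for LPS + LPS and for Metformin + LPS over LPS, Zeb1∆M left of Zeb1WT macrophages in separate panels, with bars for the standard error from edgeR; black circles use TMM scaling, grey squares total-count scaling, and filled symbols are called. With TMM, Ccl24 is at -4.66 in both genotypes after LPS + LPS, and Folr2 is at 2.87 in Zeb1∆M and 3.43 in Zeb1WT macrophages.

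Whether the genotypes differed in their response to treatment was tested with interaction terms. For LPS + LPS, edgeR called 0% of the 13443 genes and 0 members, with 939 genes and 1 member (Retnla, -2.23, adjusted p = 0.43) at an unadjusted p under 0.05 and 0 members by DESeq2. For Metformin + LPS, 0.156% of all genes and 0 members were called, with 1832 of the 13443 genes and 4 members at an unadjusted p under 0.05. These members were Retnla at -2.59, Folr2 at -1.93, Ccl24 at -1.77 and Mrc1 at -1.27 (adjusted p = 0.14, 0.16, 0.14 and 0.24). DESeq2 called Retnla (adjusted p = 0.021), Ccl24 (0.033) and Folr2 (0.045) in this interaction, where it called 128 genes higher and 172 lower over the whole table.

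The other genes of the pathway came from 2 lists, of 17 tested genes of interleukin-4 and interleukin-13 signalling and 16 tested further targets. Signalling genes were called lower in Zeb1∆M macrophages in 2, 0 and 1 cases after LPS, LPS + LPS and Metformin + LPS (medians -0.26, -0.28 and -0.23), and further targets in 3, 1 and 5 cases (medians -1.06, -0.34 and -0.60), with 0 called higher in any of them. Over all genes, 0.937%, 0.216% and 4.61% were lower in these comparisons, with medians of 0.01, -0.02 and 0.03. Stat6, the transcription factor of the pathway, was called in no genotype comparison (-0.26, 0.13 and 0.06) but was higher after LPS + LPS than after LPS, by 1.40 in Zeb1∆M and 1.00 in Zeb1WT macrophages. After LPS + LPS, 4 signalling genes were higher and 7 lower than after LPS in Zeb1∆M and 3 higher and 5 lower in Zeb1WT macrophages, and 5 further targets were higher and 3 lower in Zeb1∆M and 5 higher and 5 lower in Zeb1WT macrophages, where the shares over all genes were 15.8% and 16.9% in Zeb1∆M and 18.6% and 18% in Zeb1WT macrophages. After Metformin + LPS, Zeb1∆M macrophages had 2 signalling genes higher and 3 lower than after LPS, and Zeb1WT macrophages had 2 higher and 4 lower, with 7 further targets higher and 2 lower in Zeb1∆M and 8 higher and 4 lower in Zeb1WT macrophages, where the shares over all genes were 12.6% and 13.6% in Zeb1∆M and 13% and 12.3% in Zeb1WT macrophages. Jak1, a receptor-bound kinase, was lower after LPS + LPS, by -1.17 in Zeb1∆M and -1.32 in Zeb1WT macrophages.

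Il4, the ligand itself, had 0 counts in all 3 Zeb1∆M libraries after Metformin + LPS, which allows up to 0.142 to 0.158 CPM, against 1.71, 0.647 and 0.696 CPM in Zeb1WT macrophages. After LPS + LPS it had 0.134, 0.126 and 0.0947 CPM in Zeb1∆M and 0.474, 9.44 and 0.909 CPM in Zeb1WT macrophages, with the highest value again in Zeb1WT replicate 2. None of the 17 tested signalling genes, Il4 included, was called between genotypes there. After LPS the genotypes overlapped in Il4, with 0.223, 3.67 and 1.73 CPM in Zeb1∆M and 3.23, 3.65 and 3.09 CPM in Zeb1WT macrophages. Which cells of these bulk libraries carried the Il4 transcripts was not tested. Il13, the second ligand, was at 0 in 15 of the 18 libraries. Intervals of this kind cover counting error only.

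Arg1, the arginase that is the classic product of alternative activation, had 53.1 ± 20.7 CPM in Zeb1∆M and 138 ± 32.0 CPM in Zeb1WT macrophages after Metformin + LPS (SD, n = 3 each), a called difference (-1.38, edgeR adjusted p = 0.03). Arg1 was also lower in every Zeb1∆M library after LPS, at 10.25 to 20.29 CPM against 26.87 to 48.06 CPM in Zeb1WT macrophages. The Arg1 libraries thus lay apart by genotype after LPS as well as after Metformin + LPS, and for LPS only the ranges are given. After LPS + LPS it reached 2602 ± 653 CPM in Zeb1∆M and 2458 ± 941 CPM in Zeb1WT macrophages (SD, n = 3 each), and the genotypes overlapped. Clec7a, the beta-glucan receptor Dectin-1, was lower in Zeb1∆M macrophages after LPS (-1.23, adjusted p = 0.0063), LPS + LPS (-0.98, adjusted p = 0.034) and Metformin + LPS (-1.17, adjusted p = 0.0034). Chil3, a chitinase-like secreted protein, was lower after Metformin + LPS (-3.22, adjusted p = 0.0046), and the chemokine Ccl22 after LPS (-2.32, adjusted p = 0.012) and Metformin + LPS (-2.96, adjusted p = 0.0018). The study named Arg1, Il4 and Retnlg from these samples, so those genes were not chosen independently of them. Retnlg, the resistin-like relative of Retnla, had 0, 0.369 and 0.708 CPM in Zeb1∆M and 13.9, 17.1 and 27.5 CPM in Zeb1WT macrophages after Metformin + LPS. After LPS it ran from 6.17 to 12.7 CPM in Zeb1∆M and from 44.5 to 49.2 CPM in Zeb1WT macrophages, also without overlap. After LPS + LPS the genotypes overlapped, with 37.8, 20.2 and 43.1 CPM in Zeb1∆M and 26.8, 427 and 146 CPM in Zeb1WT macrophages. Neither of these last 2 differences was called.

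Across the 18 libraries, which share their groups and their scaling, Mrc1 and Folr2 had the highest r among the members (0.89). After group means were removed it was 0.66, and 0.69 for Folr2 with Clec10a and with Ccl24, while Il4ra and Ccl24 (0.87) shared little beyond their group means (0.09). Of all genes with a mean log2 CPM of at least 3, Anxa5 was nearest to Folr2 (r = 0.97, 0.88 within groups), Socs3 to Il4ra (0.97, 0.87 within groups) and Il1rn to Retnla (0.92, 0.49 within groups). These correlations describe 18 libraries and carry no test.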

How the data were processed

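RNA was extracted with TRIzol and libraries were made with the TruSeq Stranded mRNA kit. The submitters' processing notes name STAR, RSEM and DESeq2, without versions, and the GRCm38 genome; the annotation release and the strand setting of counting were not given in the sources used here. The authors deposited whole-number counts per gene for 18 libraries, with no normalization, and these counts were the input. Groups came from the labels, and no duplicated library was found.

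Counts were filtered with filterByExpr, scaled with TMM factors and fitted in edgeR 4.0.16 (R 4.3.3, limma 3.58.1) with glmQLFit and glmQLFTest, as 1 fit with a mean per group over all 18 libraries, and p-values were adjusted by Benjamini-Hochberg over 13443 genes in each of 9 comparisons. The standard error is the log2 fold change divided by the square root of F. DESeq2 1.42.0, other scalings, no filter, a replicate block, fewer groups and leaving out each library were the alternatives; total-count scaling and a table without Lyz2 were added after seeing the data. Scripts were tested on simulated counts.

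All 8 members were tested in every comparison, and not every value is printed. Also named are Zeb1, Lyz2, Il4, Il13, Stat6, Arg1 and Retnlg, up to 4 called genes of each list, and the genes most like Folr2, Il4ra and Retnla. The members and lists were chosen with earlier results of these data known. Same-numbered libraries did not deviate together (45 pairs, r from -0.09 to 0.15, 3 over 0.1), so replicate numbers were not treated as pairs. Figures were drawn with matplotlib 3.10.9.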

Additional observations from a re-analysis of the deposited data

How the results depend on the processing

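Under median-of-ratios size factors, with a required log2 fold change of at least 1 and without Lyz2, the counts of members called equalled those above in all 9 comparisons. With Zeb1∆M against Zeb1WT after LPS + LPS, the count of members called lower (1, Retnla) was 2 with DESeq2 and with no count filter, 0 in the fit of the 2 groups alone, 0 in the 12 libraries with AL codes, and 0 to 1 leaving out 1 library. The replicate block also gave 0 there (Retnla -2.44, adjusted p = 0.069) and changed no other count of members. In the Metformin + LPS interaction the 0 members lower became 3 with DESeq2, 4 with no filter, 1 with only the groups compared and 0 to 1 leaving out 1 library, and in the LPS + LPS interaction 1 with no filter. Metformin + LPS against LPS in Zeb1∆M macrophages gave 1 higher with no filter and 0 to 1 leaving out 1 library, where the 4 lower became 1 to 3, and in Zeb1WT macrophages the 2 lower became 1 to 2. The unfiltered fit estimated no gene-specific spread, so its p-values are smaller.

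With total-count scaling, chosen after seeing the data, the median of all genes moved by 0.57 (Zeb1∆M against Zeb1WT after Metformin + LPS), by 0.59 and 0.65 (LPS + LPS against LPS in Zeb1∆M and Zeb1WT), by -0.23 and -0.71 (Metformin + LPS against LPS in Zeb1∆M and Zeb1WT) and by 0.48 (Metformin + LPS interaction), and the share of higher calls over all genes became 91% beside 21.4%, 82.2% beside 48.3%, 81.9% beside 50.8%, 28.4% beside 48.1%, 8.33% beside 51.4% and 91.6% beside 52.4%. The 4 members lower after Metformin + LPS were still called: Retnla -2.21, Mrc1 -0.91, Folr2 -1.19 and Ccl24 -0.98. LPS + LPS against LPS in Zeb1WT macrophages then gave 4 higher and 2 lower, with Clec10a (1.13, adjusted p = 0.019) and Cd163 (1.54, adjusted p = 0.0042) added and Retnla (-0.75, adjusted p = 0.21) and Mgl2 (-0.75, adjusted p = 0.12) no longer called, and Metformin + LPS against LPS gave 1 higher, without Mrc1 (0.50, adjusted p = 0.2), and 3 lower, with Ccl24 added (-0.93, adjusted p = 0.019). Uncalled members that turned sign were Mgl2 0.40, Cd163 0.29 and Il4ra 0.49 (genotype, Metformin + LPS), Clec10a -0.02 and Il4ra -0.53 (Metformin + LPS against LPS, Zeb1WT), Il4ra -0.18 (Zeb1∆M), and Il4ra -0.03 and 0.35 (interactions).

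Other turned signs were all uncalled and near 0: Il4ra -0.02 after LPS with median-of-ratios and DESeq2, Mrc1 0.02 with both and 0.01 with no filter (Metformin + LPS against LPS, Zeb1∆M), and Ccl24 in the LPS + LPS interaction at 0.02 with both, 0.03 with no filter and with the replicate block, 0.01 with fewer groups or AL libraries and 0.00 without Lyz2. Leaving out 1 library turned the sign of uncalled members only. The ranges were, for the genotype difference after LPS, Clec10a -0.35 to 0.43, Folr2 -0.36 to 0.45, Il4ra -0.09 to 0.22 and Ccl24 -0.20 to 0.35; after LPS + LPS, Clec10a -0.59 to 0.14 and Il4ra -0.06 to 0.27; after Metformin + LPS, Cd163 -0.54 to 0.15 and Il4ra -0.38 to 0.19. For LPS + LPS against LPS the range was -0.15 to 0.63 for Clec10a in Zeb1∆M. For Metformin + LPS against LPS it was -0.29 to 0.32 for Mrc1 and -0.06 to 0.16 for Il4ra in Zeb1∆M, and -0.10 to 0.48 for Il4ra and -0.47 to 0.23 for Ccl24 in Zeb1WT. In the LPS + LPS interaction it was -0.47 to 0.10 for Mrc1, -0.71 to 0.13 for Clec10a, -0.13 to 0.23 for Il4ra and -0.22 to 0.33 for Ccl24, and in the Metformin + LPS interaction -0.25 to 0.52 for Clec10a, -0.03 to 0.69 for Cd163 and -0.40 to 0.17 for Il4ra. DESeq2 called 107 higher and 398 lower genes after LPS, 176 and 206 after LPS + LPS and 354 and 1017 after Metformin + LPS (edgeR: 28 and 126, 62 and 29, 169 and 620).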
